A study of Mus musculus with 8 samples.

Results

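The genes for the histone variant H3.3 and for the chaperones that deposit it were examined in mouse neuronal stem cells carrying either the mutant or the wild-type form of that histone. The set held 9 of the 26219 RefSeq genes with curated transcripts that were analysed. It comprised the H3.3 genes H3f3a and H3f3b, the HIRA complex genes Hira, Ubn1 and Cabin1, the partners Daxx and Atrx, and the H3-H4 chaperones Asf1a and Asf1b. The genes were chosen by name, and every called interval that overlapped the mm10 gene span with 1 kb on each side was taken as belonging to the gene.

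The K27M cells were stably transduced with H3.3K27M, an H3.3 in which lysine is replaced by methionine at the residue that carries H3K27me3 and H3K27ac. The WT cells received wild-type H3.3 in the same way, so both kinds of cell carried an added H3.3 beside their own. Both are labelled p16Ink4a and p14Arf negative and were kept in serum-free medium with EGF and bFGF. The labels give neither the number of clones nor which H3.3 gene the added coding sequence came from. ChIP-seq of H3K4me3, H3K27ac and H3K27me3 gave 1 library for each genotype and mark, 6 in all. The 2 inputs play no role here.

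With a single library per group there was no replicate spread, so no difference below was tested and all of them describe these libraries. Values are the authors' tag densities, the mean number of tags per bin of about 32 nt across a called interval, and they compare a gene between libraries and not with its RNA. The lists held 22820 and 23368 H3K4me3 intervals in K27M and WT cells, 20040 and 39018 H3K27ac intervals, and 5877 and 20705 H3K27me3 intervals. Sequencing depth is unknown. All 8 neural stem and progenitor marker genes carried H3K4me3 and H3K27ac in both genotypes, while H3K27ac lay at 0 of 6 neuronal, 2 of 4 astrocyte, 1 of 4 oligodendrocyte, 0 of 4 microglial, 1 of 4 endothelial and 0 of 4 fibroblast markers in K27M cells. The counts in WT cells were 2 of 6 neuronal, 3 of 4 astrocyte, 1 of 4 oligodendrocyte, 1 of 4 microglial, 2 of 4 endothelial and 1 of 4 fibroblast markers, and the part of other cell types in the results was not tested. H3K4me3 did not separate the lists in this way: in each genotype it lay at 5 of 6 neuronal, 2 of 4 astrocyte, 0 of 4 oligodendrocyte, 0 of 4 microglial, 2 of 4 endothelial and 1 of 4 fibroblast markers. Cdkn2a, the gene of p16Ink4a, held H3K4me3 and H3K27ac intervals in both genotypes, so these marks do not check the negative label.

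H3.3 differs from the replication-coupled H3 proteins at a few residues and is placed into chromatin throughout the cell cycle. H3f3a and H3f3b encode the same protein. The HIRA complex deposits H3.3 at active genes and regulatory elements, whereas DAXX with ATRX deposits it at telomeres, pericentric repeats and other heterochromatin, and ASF1 proteins carry H3-H4 dimers to the depositing complexes. H3K4me3 marks promoters in use or poised for use, H3K27ac marks active promoters and enhancers, and H3K27me3, the product of PRC2, marks repressed genes.

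The sequences before the annotated starts of 4 of the genes are shown because H3f3a and H3f3b, which encode one protein, have unlike promoters, and because Atrx and Asf1b stood near the opposite ends of the H3K27ac levels described below. They come from RefSeq on GRCm38.p6, the assembly of mm10, and run 5' to 3' along the gene's own strand over the 250 bases before the start. Capitals mark matches, on either strand, to the CCAAT box (CCAAT), the TATA box (TATAAA), the GC box (GGGCGG), an ETS-type motif (CCGGAA), a CRE-type motif (TGACGTC), an NRF1-type motif (GCATGCG) and E2F-type motifs (TTCCCGC in one form and TTGGCGC in the other).
H3f3a, chr1:180813606-180813855, minus strand: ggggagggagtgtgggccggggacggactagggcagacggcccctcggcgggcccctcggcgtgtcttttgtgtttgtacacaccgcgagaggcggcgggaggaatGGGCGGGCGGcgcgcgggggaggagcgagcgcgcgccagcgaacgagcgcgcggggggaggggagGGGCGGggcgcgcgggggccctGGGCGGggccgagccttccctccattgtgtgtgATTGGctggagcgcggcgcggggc
H3f3b, chr11:116024505-116024754, minus strand: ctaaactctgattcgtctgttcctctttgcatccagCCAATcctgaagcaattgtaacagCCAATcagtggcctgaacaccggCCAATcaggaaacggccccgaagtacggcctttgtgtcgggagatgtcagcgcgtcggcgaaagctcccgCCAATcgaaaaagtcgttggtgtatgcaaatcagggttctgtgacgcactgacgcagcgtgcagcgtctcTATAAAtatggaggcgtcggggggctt
Atrx, chrX:105929373-105929622, minus strand: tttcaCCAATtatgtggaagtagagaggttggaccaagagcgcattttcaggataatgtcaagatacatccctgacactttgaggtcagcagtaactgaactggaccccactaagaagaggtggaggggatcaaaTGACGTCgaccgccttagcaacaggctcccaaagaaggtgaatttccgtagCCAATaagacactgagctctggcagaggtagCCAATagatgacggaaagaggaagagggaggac
Asf1b, chr8:83955444-83955693, plus strand: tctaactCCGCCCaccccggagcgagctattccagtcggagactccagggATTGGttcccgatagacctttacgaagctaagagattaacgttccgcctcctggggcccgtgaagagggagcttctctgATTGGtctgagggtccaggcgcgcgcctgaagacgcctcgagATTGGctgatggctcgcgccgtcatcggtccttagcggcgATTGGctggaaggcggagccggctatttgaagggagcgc

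Letters were searched in windows of 300 bases, 250 before and 50 after the start, on both strands. H3f3b was the only one of the 9 genes with TATAAA, 27 bases before its start, a motif found in 13.0% of 19528 promoters. It also held 4 CCAAT matches and no GGGCGG. H3f3a held 1 CCAAT match and 6 of GGGCGG, some of them overlapping, and its window was 74.0% G and C with 39 CpG, against 55.0% and 24 CpG for H3f3b and medians of 55.7% and 12 over all promoters. CCAAT occurred in 8 of the 9 windows, all but that of Hira, and in 39.2% of all promoters. GGGCGG occurred in 7 windows, all but those of H3f3b and Atrx, against 45.0% of promoters. CCGGAA was found in Hira, Cabin1 and Daxx (18.5% of promoters), TGACGTC in Ubn1 and Atrx (3.93%), and TTGGCGC in Atrx (3.17%), whose 4 CCAAT matches and 1 TTGGCGC match stood in a window with 50.3% G and C and 11 CpG. GCATGCG (4.44% of promoters) and TTCCCGC (5.85%) were in none of the 9 windows. A match here is a description of letters.

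All 9 genes carried H3K4me3 and H3K27ac in both genotypes, and none carried H3K27me3 in either. Over all genes 52.0% had H3K4me3 and 40.7% had H3K27ac in both genotypes, 9.11% had H3K27me3 in both and 69.5% had it in neither. The full pattern of the 9 genes was shared with 32.1% of all genes, 8407 in number. The 9 genes held 19 H3K4me3 intervals in K27M cells and 17 in WT cells, and 20 H3K27ac intervals in K27M cells and 29 in WT cells. Overlapping intervals of both genotypes were merged into regions, and the ratio of a gene is log2((K27M density + 1)/(WT density + 1)) in its densest region called in both.

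**Figure D1:**
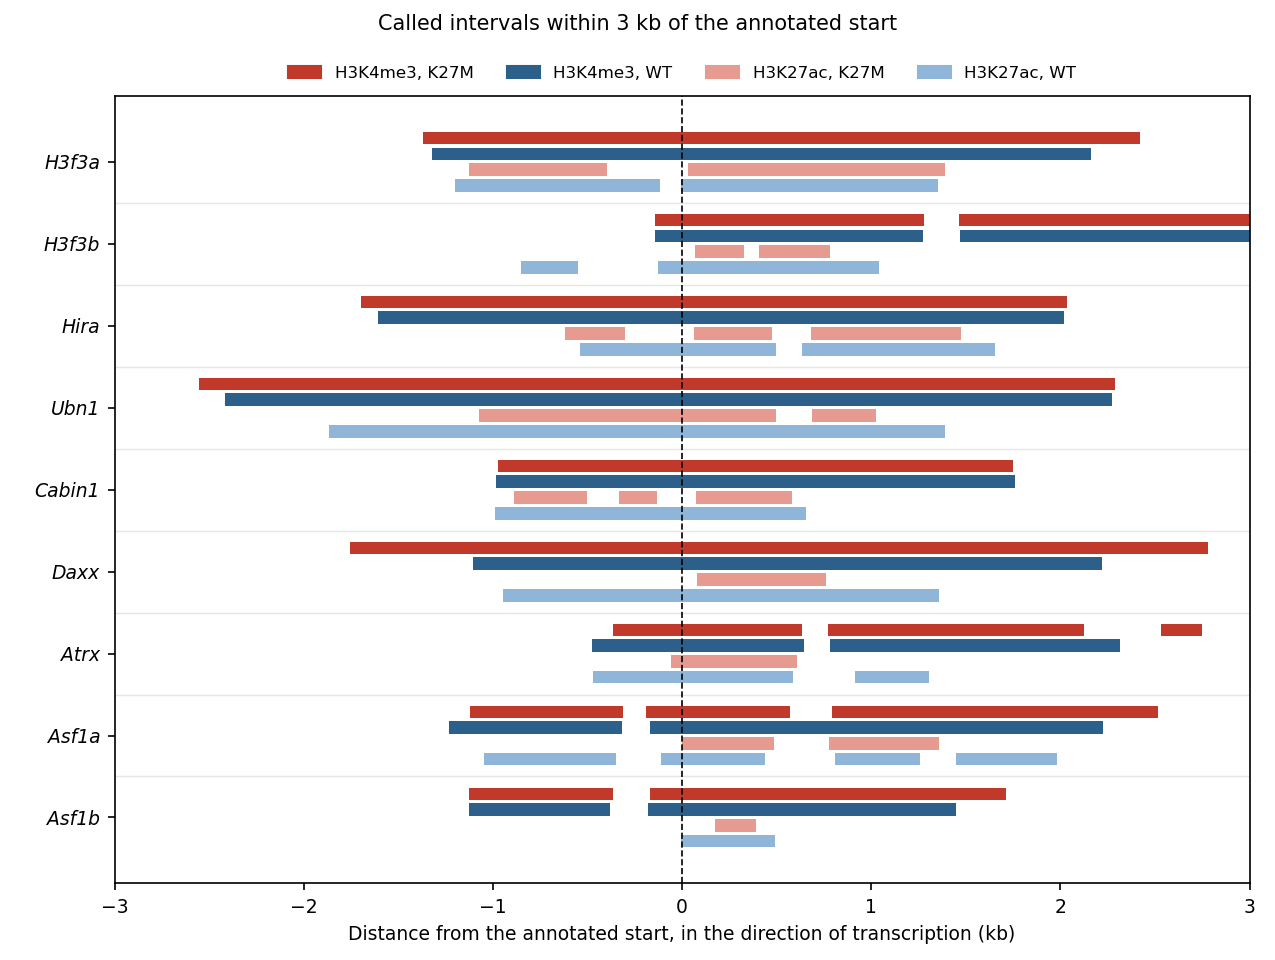
Called H3K4me3 and H3K27ac intervals within 3 kb of the annotated start of the 9 genes, in kb along the direction of transcription, with K27M above WT for each mark. H3K4me3 covers nearly the same ground in both genotypes, and H3K27ac over the start is broken into more intervals in K27M cells at H3f3b, Hira, Ubn1 and Cabin1. At H3f3b 375 bp and 261 bp in K27M cells stand against 1169 bp in WT cells.

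H3f3a (gene 15078, chr1:180802560-180813605, minus strand) encodes H3.3. Its single H3K4me3 interval spanned the start and had a density of 115.7 in K27M cells and 83.2 in WT cells, a log2 ratio of 0.47. The highest bin held 306 tags in K27M cells and 189 in WT cells, a log2 ratio of 0.69. In the densest shared region of each gene this was the only H3K4me3 highest-bin ratio past 1.5-fold, a size that 22.8% of all genes reached on that measure. The highest bins did not coincide, lying 293 bp after the start in K27M cells and 933 bp after it in WT cells. At the other 8 genes the H3K4me3 maxima of the genotypes lay at most 128 bp apart.

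H3K27ac at H3f3a lay in 2 regions, one on each side of the start. After the start its density was 60.7 in K27M cells and 73.4 in WT cells (log2 ratio -0.27), and before the start 57.6 in K27M cells and 45.9 in WT cells (0.32). The highest bins after the start were close, at 114 tags in K27M cells and 121 in WT cells.

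H3f3b (gene 15081, chr11:116021961-116026039, minus strand) encodes the same protein. Its start region had one of the densest H3K4me3 signals in either library, 161.2 in K27M cells and 121.5 in WT cells, at percentiles 98.4 and 98.3 among genes with the mark, with a log2 ratio of 0.40. A second region, 1466 bp to 3155 bp after the start and without a CpG island, had 34.9 in both K27M and WT cells. It runs past the gene's end, and the deposited lists note 2 promoters and 3 genes for it. The H3K4me3 maxima of both genotypes fell on the same bin, 600 bp after the start.

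H3f3b had the lowest H3K27ac ratio of the 9 genes, -0.52 on the log2 scale, at percentile 3.23 of all genes. Its density was 47.3 in K27M cells and 68.5 in WT cells. The highest bin held 65 tags in K27M cells and 129 in WT cells, a log2 ratio of -0.98 at percentile 3.50. The acetylated length called was 636 bp in K27M cells and 1468 bp in WT cells. In WT cells a weak interval of 299 bp with a density of 19.9 stood apart upstream of the annotated start used. That start, at 116024504, lies inside the gene span given above, and so do this interval and the sequence shown. H3f3a and H3f3b therefore had close H3K4me3 ratios, 0.47 and 0.40, and H3K27ac ratios of -0.27 and -0.52 in their densest regions.

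One limit concerns the reads of these genes. H3f3a and H3f3b have near-identical copies of their coding sequence in the genome, including H3f3c and the pseudogenes H3f3a-ps1 and H3f3a-ps2, and both cell lines carry an added H3.3 coding sequence, so tags in coding exons may be assigned uncertainly. The part of this in the H3f3a and H3f3b values was not tested. H3f3c (chr2:119665116-119666152) had no H3K4me3 or H3K27ac interval in either genotype and no H3K27me3 interval in K27M cells, and in WT cells 1 H3K27me3 interval of 7399 bp at a density of 6.98.

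**Figure D2:**
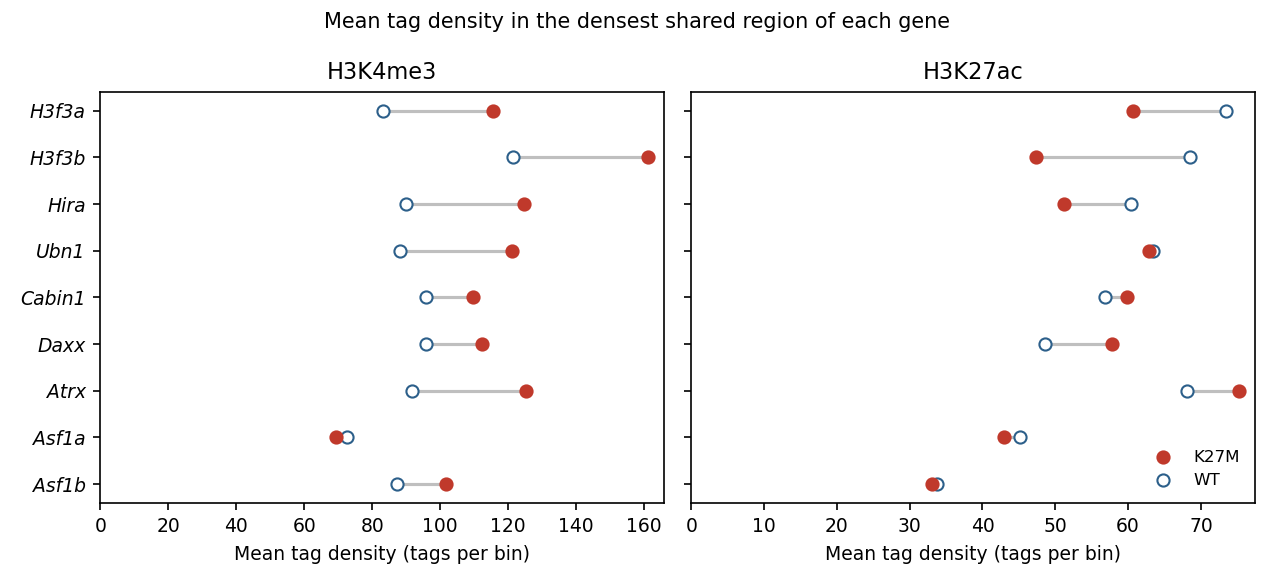
Mean tag density (tags per bin of about 32 nt) in the densest shared region of each gene, with filled points for K27M and open points for WT, 1 library each. At the deposited scale 8 of 9 H3K4me3 pairs have K27M on the right. Once the sums of density of both lists are made equal, 4 of 9 do so. For H3K27ac the deposited scale gives 3 of 9 pairs, equal sums 9 of 9 and equal 5th percentiles 0 of 9. Over all genes 13151 of 13592 H3K4me3 ratios and 5569 of 10573 H3K27ac ratios are above 0 at the deposited scale.

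Hira (gene 15260, chr16:18876750-18970309, plus strand) encodes the scaffold and histone-binding subunit of the HIRA complex. Its H3K4me3 interval had a density of 124.8 in K27M cells and 90.1 in WT cells, a log2 ratio of 0.47. H3K27ac lay in 2 regions. The denser one, 634 bp to 1654 bp into the gene, had 51.2 in K27M cells and 60.4 in WT cells (-0.23), and the one over the start had 47.7 in K27M cells and 54.4 in WT cells (-0.19). The start lies 113 bp from that of Mrpl40 on the opposite strand, so the marks over the start cannot be assigned to one of these genes.

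Ubn1 (gene 170644, chr16:5050057-5086289, plus strand) encodes ubinuclein 1, which contacts the residues that set H3.3 apart. It had an H3K4me3 density of 121.3 in K27M cells and 88.1 in WT cells, with a log2 ratio of 0.46. Its mean H3K27ac density was nearly equal, 62.9 in K27M cells and 63.4 in WT cells (-0.01), each over that library's own called intervals. The highest bin held 119 tags in K27M cells and 145 in WT cells (-0.28). The called H3K27ac length was 1905 bp in K27M cells and 3257 bp in WT cells. The maxima of both marks lay before the start, toward Glyr1, whose start on the opposite strand is 147 bp away and whose share in the marks cannot be told apart.

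Cabin1 (gene 104248, chr10:75646110-75764357, minus strand) encodes the large subunit of the HIRA complex that was first known as a calcineurin-binding protein. Over its start the H3K4me3 density was 109.7 in K27M cells and 95.9 in WT cells (0.19). A second H3K4me3 region with a CpG island, from 95317 bp to 98207 bp into the gene, had 113.9 in K27M cells and 77.0 in WT cells (0.56). The same internal region had H3K27ac of 45.9 in K27M cells and 59.9 in WT cells (-0.38), so the 2 marks had opposite signs there. The highest H3K4me3 bin of this region held 268 tags in K27M cells and 160 in WT cells (0.74).

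Cabin1 held more acetylated intervals than any other gene of the set, 6 in K27M cells and 12 in WT cells, covering 3876 bp and 12668 bp. The region used for its ratio, 58005 bp to 61270 bp into the gene and without a CpG island or promoter note, had mean densities of 59.9 in K27M cells and 56.8 in WT cells (0.08). The K27M interval there was 802 bp and the WT interval 3265 bp long, and the highest bins held 90 tags in K27M cells and 142 in WT cells (-0.65). The mean and the highest value thus had opposite signs in this region. A further 8 regions inside Cabin1 were acetylated in the WT list alone, with densities from 19.2 to 29.9 and lengths from 216 bp to 2190 bp.

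**Figure D3:**
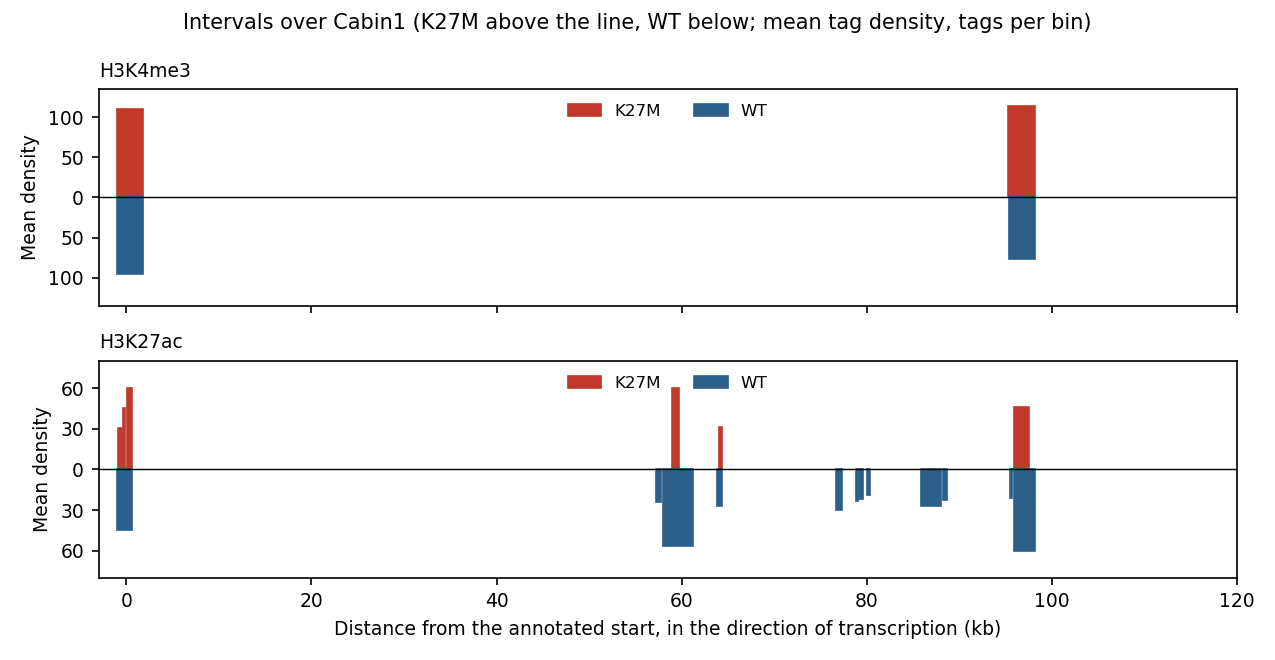
Mean tag density of each called interval over Cabin1 against distance from its start in kb along the direction of transcription, with K27M bars above the line and WT bars below it, for H3K4me3 and H3K27ac. H3K4me3 intervals pair up between the genotypes, and every H3K27ac interval between 76.7 kb and 88.7 kb lies below the line.

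Daxx (gene 13163, chr17:33909404-33915590, plus strand) encodes the H3.3-specific chaperone that works with ATRX. Over its start the H3K4me3 density was 112.4 in K27M cells and 95.8 in WT cells (0.23). It had the highest H3K27ac ratio of the 9 genes, with 57.7 in K27M cells and 48.6 in WT cells (0.24). The highest bin there held 87 tags in K27M cells and 123 in WT cells (-0.49), and the interval was 684 bp long in K27M cells and 2304 bp in WT cells. The interval over the start is shared with BC051226, which begins 267 bp away on the opposite strand. The long called length of H3K4me3, 10189 bp in K27M cells and 9072 bp in WT cells, includes intervals that run past the gene's end into Zbtb22 and Tapbp. At the gene's end, in a weaker region shared with Zbtb22, the highest H3K4me3 bin held 99 tags in K27M cells and 56 in WT cells (0.81).

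Atrx (gene 22589, chrX:105797615-105929372, minus strand) encodes a SWI/SNF-type ATPase that binds DAXX and repeats. Its H3K4me3 density over the start was 125.4 in K27M cells and 91.8 in WT cells (0.45). Its H3K27ac was the densest of the 9 genes in K27M cells, 75.3 against 68.0 in WT cells (0.14), at percentiles 96.2 and 92.8 of genes with the mark. The highest bin had the opposite order, with 117 tags in K27M cells and 130 in WT cells (-0.15). The acetylated length was 667 bp in K27M cells and 1449 bp in WT cells. Atrx also held the single H3K4me3 region found in the K27M list alone, 220 bp long at a density of 16.9, which is below the 5th percentile of that list, 18.9.

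Asf1a (gene 66403, chr10:53596961-53609225, plus strand) encodes the ASF1 form with the closer tie to HIRA. It was the exception for H3K4me3, with 69.2 in K27M cells and 72.5 in WT cells, a log2 ratio of -0.06 at percentile 2.05 of all genes. In K27M cells the region was called as 2 intervals with densities of 83.5 and 62.9, and in WT cells as 1. The highest bins were 171 tags in K27M cells and 156 in WT cells (0.13), and a separate region upstream had 66.2 in K27M cells and 45.7 in WT cells (0.53). H3K27ac over its start was 43.0 in K27M cells and 45.2 in WT cells (-0.07), with highest bins of 57 and 66 tags (-0.21). The whole of this start lies inside the span of Mcm9, on the opposite strand.

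Asf1b (gene 66929, chr8:83955694-83970195, plus strand) encodes the ASF1 form tied to dividing cells. Its H3K4me3 density was 101.8 in K27M cells and 87.4 in WT cells (0.22). Its H3K27ac was the weakest of the set, 33.0 in K27M cells and 33.8 in WT cells (-0.03), at percentiles 13.2 and 30.4 of genes with the mark. The highest acetylated bin held 35 tags in K27M cells and 44 in WT cells (-0.32). The acetylated interval measured 215 bp in K27M cells and 497 bp in WT cells. Gm10644 begins 361 bp away on the opposite strand, within reach of the upstream H3K4me3 region.

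The order of levels differed between the marks. For H3K4me3 it ran in K27M cells from H3f3b at 161.2 through Atrx, Hira, Ubn1, H3f3a, Daxx, Cabin1 and Asf1b to Asf1a at 69.2. In WT cells H3f3b stood first at 121.5 and Asf1a last at 72.5, with the 7 others between 83.2 and 95.9. For H3K27ac the order in K27M cells ran from Atrx at 75.3 through Ubn1, H3f3a, Cabin1, Daxx, Hira, H3f3b and Asf1a to Asf1b at 33.0. In WT cells it ran from H3f3a at 73.4 through H3f3b, Atrx, Ubn1, Hira, Cabin1, Daxx and Asf1a to Asf1b at 33.8. H3f3b was thus seventh in K27M cells and second in WT cells for H3K27ac, and with 1 library a group no neighbours in these orders can be said to differ.

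At the deposited scale 8 of the 9 H3K4me3 ratios were above 0, as were 13151 of the 13592 over all genes. The 9 ratios had a median of 0.40 and ran from -0.06 to 0.47. Once the sums of density of both lists were made equal, 4 of the 9 were above 0. Over the 13592 genes with a ratio the median was 0.37, and a change of scale and a genome-wide change cannot be told apart here. Relative to that median 5 of the 9 genes were higher and 4 lower. By mean density in the densest shared region the genes relatively lower were Cabin1, Daxx, Asf1a and Asf1b. The names depend on the measure. With the mean over every interval of the window, the all-gene median was 0.35. Daxx (0.44) and Cabin1 (0.37) then lay above it, and H3f3b (0.30), Asf1a (0.07) and Asf1b (0.25) below it. By the highest bin Daxx stood at percentile 51.0 of all genes and Atrx at 24.4. None of the 9 reached 1.5-fold higher, as 11.4% of all genes did, or 1.5-fold lower, as 0.169% did. A median this close to that of all genes is not a result about the members.

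The H3K27ac ratios had a median of -0.03 and ran from -0.52 to 0.24 at the deposited scale, with 3 above 0 and 6 below. Over all genes 5569 ratios were above 0 and 5001 below. All 9 member ratios were above 0 with equal sums and below 0 with equal 5th percentiles. By the highest bin all 9 ratios were below 0, from -0.98 to -0.09, with a median of -0.32 beside -0.29 over all genes. The median of the mean-density ratio over 10573 genes was 0.02. None of the 9 passed 1.5-fold in either direction at the deposited scale, against 3.91% of genes higher and 1.95% lower.

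**Figure D4:**
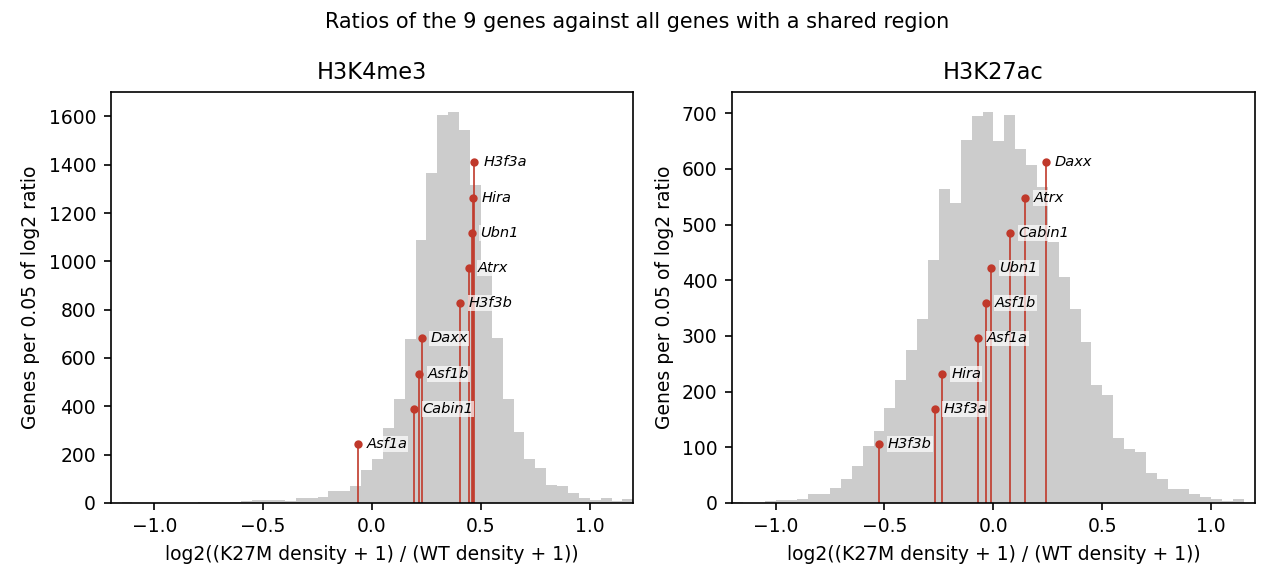
Number of genes per 0.05 of log2((K27M density + 1)/(WT density + 1)) for H3K4me3 and H3K27ac at the deposited scale, with the 9 genes as labelled pins whose heights carry no value. Asf1a stands at the low edge for H3K4me3 at -0.06 and H3f3b for H3K27ac at -0.52, and the other pins fall within the bulk; with equal sums of density all 9 H3K27ac values lie above 0.

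The length called acetylated was shorter in K27M cells at all 9 genes, as it was at 92.7% of the 10683 genes with H3K27ac in both. The median length ratio, K27M over WT, was 0.460 for the 9 genes and 0.551 for all. It was lowest at Daxx (0.226) and Cabin1 (0.306) and highest at Hira (0.745) and H3f3a (0.855). At 7 of the 9 genes, all but those last, the K27M length was under 1/1.5 of the WT length, against 65.0% of all genes. For H3K4me3 the K27M length was shorter at Atrx and Asf1a only, 2 of 9 against 38.5% of all genes, and under 1/1.5 of the WT length at 0 of 9 against 2.40%. The median H3K4me3 length ratio was 1.03 for the 9 genes and 1.04 for all.

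**Figure D5:**
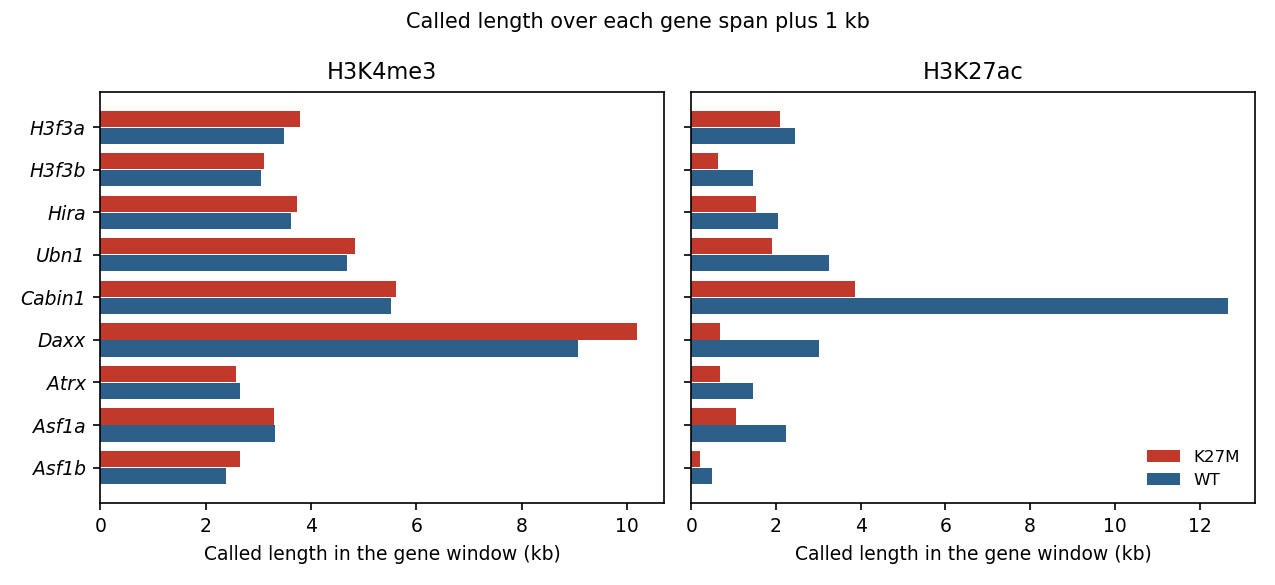
Length in kb of the intervals called over each gene span plus 1 kb, with K27M bars above WT bars, for H3K4me3 and H3K27ac. The H3K27ac bar is shorter in K27M cells at all 9 genes, from 215 bp against 497 bp at Asf1b to 3876 bp against 12668 bp at Cabin1.

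No acetylated region called in WT cells alone overlapped the annotated start of its gene, though some lay close to it. At Asf1a such a region ran from -1048 bp to -350 bp of the start, and at Atrx from 914 bp to 1307 bp. Of 29 H3K27ac regions at the 9 genes 15 were found in both lists, 14 in the WT list alone and 0 in the K27M list alone. All 9 regions that overlapped an annotated start were found in both. Of the 20 others 6 were in both and 14 in WT alone, and 8 of these 14 were in Cabin1. No count over all genes stands beside this split by start, so it is not read as a result about the members. All 17 WT H3K4me3 intervals at the 9 genes were met by a K27M interval, against 88.5% of such intervals at all genes. For H3K27ac 15 of 29 were met (51.7%), against 43.3% at all genes. Among WT H3K27ac intervals with a CpG island 13 of 15 were met by a K27M interval (86.7%), against 79.8% of such intervals at all genes. Without a CpG island 2 of 14 were met (14.3%), against 20.6% at all genes. The 14 regions of the WT list alone had densities of 19.2 to 32.5, and 10 of them lay below 25.5, the 5th percentile of the K27M list, where that list held few intervals for any gene. With intervals under that density left out of both lists, acetylated length was shorter in K27M at all 9 genes and 89.3% of all genes. The median ratio was then 0.585 for the 9 genes and 0.629 for all. Intervals were left out whole and not trimmed, so this step does not address how far each interval was called. The part of the calling floor in the lengths was not tested.

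H3K27me3 stayed outside all 9 gene windows in both genotypes, and the nearest domain was no closer in K27M cells than in WT cells at any of them. The distances were 62.0 kb in K27M cells and 8.40 kb in WT cells for H3f3a, and 32.2 kb and 21.0 kb for H3f3b. For the HIRA complex they were 526 kb in K27M cells and 13.1 kb in WT cells at Hira, 129 kb and 10.9 kb at Ubn1, and 8.84 kb and 1.84 kb at Cabin1. Daxx had 7.21 kb in K27M cells and 5.21 kb in WT cells. Atrx had 546 kb and 34.6 kb, and Asf1a had 850 kb and 23.0 kb. Asf1b alone had the same distance in both, 2.30 kb, to a domain with a density of 3.09 in K27M cells and 6.54 in WT cells. Thus 8 of the 9 genes lay farther from H3K27me3 in K27M cells, as did 94.9% of the 18220 genes without it in either genotype. The median distance of the 9 genes was 62.0 kb in K27M cells and 10.9 kb in WT cells, and that of the 18220 genes was 247 kb in K27M cells and 47.4 kb in WT cells. The H3K27me3 list covered 44.4 Mb in K27M cells and 244 Mb in WT cells.

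The genes most like H3f3a in the 6 libraries, by Euclidean distance over log2(density + 1) of the densest interval with 0 where no interval was called, were Zbtb25 and Zbtb1 (both 0.0326, with the same values) and Eif4g2 (0.0893). Those most like H3f3b were Irs2 (0.0979), Meis2 (0.104) and Ntn1 (0.109). H3f3a and H3f3b lay 0.747 apart on this measure. H3f3b held rank 2889 in the list of H3f3a, and H3f3a held rank 1489 in the list of H3f3b.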

How the data were processed

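Groups were taken from the sample titles. The submitters' processing notes name BWA, SICER and mm10. What each tool did, with which version and threshold, and whether inputs entered the calls, is not given in the sources. The authors deposited 1 list of intervals per library, not pooled. The deposited values, per the file headers, are a signal (coverage): the mean and the highest tag density of an interval, in bins of about 32 nt. Multiplying the mean by the bin count gave whole numbers (tolerance 0.05) for 98.7% or more of a library's intervals, so no library factor was applied after counting. A change of scale between the libraries of a mark and a genome-wide change cannot be told apart.

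Intervals overlapping by at least 1 bp were merged into regions with Python 3.11.15 and pandas 2.3.3. The density of a region is the length-weighted mean over a library's own intervals, and called lengths count whole intervals, also beyond the gene window. Ratios use a pseudocount of 1, which understates changes at low density, and do not include regions lost from one list. Alternatives were other flanks, pseudocounts, scalings, overlaps, density floors, regions, the highest bin and a 2-fold threshold. A gene counted as past the threshold at 1.5-fold. Genes and promoters came from RefSeq on GRCm38.p6. The arithmetic was tested on simulated data. Named were all 9 genes, 2 extremes at each end of a list of 36 related genes, those with H3K27me3 and the 3 nearest genes; Supt6, Ipo4, the Cdkn2a check and the H3.3 copies were added after values were seen. The 9 genes and the lists were chosen with earlier results of these data known. Intervals and floors for counting error were not computed, since depth is unknown.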

Additional observations from a re-analysis of the deposited data

How the results depend on the processing

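No paired analysis was possible because each genotype and mark has 1 library and the labels give no replicate numbers. For single genes, all 108 alternative H3K4me3 ratios and 97 of 108 H3K27ac ratios moved by less than 1.5-fold, and the 11 others moved by more. The settings without a flank, with the common density floor and with the stricter overlap changed none of these ratios. They are counted among the ratios that moved little, so these counts depend on which settings were included. With the highest bin in place of the mean, 1 gene (H3f3a) was at least 1.5-fold higher for H3K4me3, against 22.8% of all genes. For H3K27ac 2 genes (H3f3b and Cabin1) were at least 1.5-fold lower, against 21.1% of all genes. The H3K27ac median over the 9 genes became -0.32 beside -0.29 over all genes. Relative to the all-gene median the H3K4me3 median was 0.0336, and with equal sums of density it was -0.0032 beside -0.03 over all genes. With equal 5th percentiles the H3K27ac median was -0.60 (all genes -0.54) and 5 genes were lower past 1.5-fold, against 45.0% of all genes. With equal sums it was 1.06 (all genes 1.12) and 8 genes were higher past 1.5-fold, against 96.4% of all genes. With a flank of 5 kb Asf1b met H3K27me3 in both genotypes and Cabin1 in WT cells alone, so 1 gene was marked in both and 1 was lower past 1.5-fold, against 87.4% of all genes with a ratio. The scalings shift all genes by construction, and the cause of the shift with the highest bin was not tested. The common density floor for called lengths was chosen after the data were seen. Depth, any spike-in and replicate spread are unknown, so no value here carries an error.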

Other observations

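A wider list of 36 genes, with other H3-H4 chaperones, partners of ATRX and DAXX, H3.3 remodellers and readers, and other histone variants, showed the same arrangement at most members. In both genotypes 34 carried H3K4me3, with a median log2 ratio of 0.35 at the deposited scale, and 31 carried H3K27ac, with a median of 0.04. Past 1.5-fold, 3 were higher and 0 lower for H3K4me3, against 11.4% and 0.169% of all genes, and 2 were higher and 0 lower for H3K27ac, against 3.91% and 1.95%. The highest H3K27ac ratios were those of Chaf1b, a subunit of the replication-coupled assembly factor CAF-1, with 62.5 in K27M cells and 36.2 in WT cells (0.77), and of Morc3, an ATPase of PML bodies, with 37.6 in K27M cells and 23.3 in WT cells (0.66). The lowest were those of Rbbp7, a histone-binding WD-repeat protein, with 45.4 in K27M cells and 68.1 in WT cells (-0.57), and of H2ax, the histone variant phosphorylated at DNA breaks, with 57.6 in K27M cells and 84.5 in WT cells (-0.54). Ipo4, Setdb1 and Cbx5, 3 of the 36, had H3K27ac intervals in the WT list alone, against 2180 of all 26219 genes.

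For H3K4me3 the highest ratios of the list were those of Ubn2, the paralog of Ubn1, with 156.5 in K27M cells and 100.04 in WT cells (0.64), and of Cdan1, which binds ASF1, with 98.5 in K27M cells and 64.1 in WT cells (0.61). Supt6, an elongation factor and histone chaperone, was the other gene past 1.5-fold (0.61). The lowest ratios were those of Chd2, a chromatin remodeller, with 57.6 in K27M cells and 59.8 in WT cells (-0.05), and of Cbx5, which encodes HP1 alpha, with 39.3 in K27M cells and 38.9 in WT cells (0.01). H3K27me3 lay at 3 genes of the list, at 2 of them in WT cells alone, against 5494 of all 26219 genes. At Sp100, a component of PML bodies, it covered 8599 bp at a density of 3.06 in K27M cells and 34797 bp at 7.59 in WT cells. At Setdb1, an H3K9 methyltransferase, and at Pml, the core gene of those bodies, no interval was called in K27M cells, and 5799 bp at 11.1 and 7399 bp at 5.05 were called in WT cells.

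The pseudogene H3f3a-ps1 had an H3K27me3 density of 2.12 in K27M cells and 6.44 in WT cells, and H3f3a-ps2 had no H3K27me3 interval in K27M cells and one with a density of 6.94 in WT cells. Neither carried H3K4me3 or H3K27ac in either genotype.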
